A study of Mus musculus with 21 samples.

Results

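The effect of continuous ruxolitinib was set against the effect of its washout, gene by gene, in Ba/F3 cells that express JAK2-V617F. The continuous effect is the mean log2 level of ruxolitinib-treated cells minus that of DMSO-treated cells, each library centred on its own median. The washout effect is the mean log2 level of ruxo-wash cells minus that of DMSO-wash cells. A gene entered when it was listed in all 3 tables that hold these groups, which was the case for 10209 of the 14645 genes listed in any of them. Of these, 275 were at least 1 log2 unit lower under continuous ruxolitinib with no overlap between the groups, and 20 were higher by the same measure.

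Ba/F3 is a mouse cell line that the labels describe as pro-B and dependent on interleukin-3, and all cells used here carry the JAK2-V617F kinase. Cells of the first experiment were kept for 6 h with 1 μM ruxolitinib or with DMSO. Cells of the second experiment had ruxolitinib at 1 μM or DMSO for 1 h, were washed 3 times with PBS, and were then kept without inhibitor for 6 h. Each of the 4 groups had 3 libraries, so the comparison rests on 12 libraries, and the continuous and washout effects share none of them. The labels do not say whether replicates were separate cultures, so the p-values measure the spread between these samples, which may be technical. No library used here was taken at the end of the 1 h exposure, so how far a gene had moved before the wash was not measured.

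Cytokine receptors such as the interleukin-3 receptor use JAK kinases to phosphorylate STAT proteins, which then enter the nucleus and switch on genes such as Cish, Socs1 and the Pim kinases. STAT proteins also drive interferon genes through related sites, among them guanylate-binding proteins and immunity-related GTPases that act against intracellular microbes. JAK2-V617F keeps this pathway on without cytokine, and ruxolitinib is an ATP-competitive inhibitor of JAK1 and JAK2 that binds the kinase in its active conformation.

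The libraries of the first experiment held 8310000 to 10270000 reads on listed genes. The depth of the washout libraries is unknown, since their values do not resolve into whole reads. Ruxolitinib-treated replicate 2 stood apart. The SD of its log2 difference from replicates 1 and 3 was 0.325 and 0.309, against 0.150 between replicates 1 and 3 and 0.116 to 0.174 within the other groups. Mitochondrial mRNA made up 3.48% of its listed signal and 1.33% to 1.70% of the other 5 libraries of that experiment. Levels in the 2 experiments are not on one scale. After centring, DMSO-wash and DMSO-treated means differed by at least 1 log2 unit for 46.5% of the genes, so only differences within an experiment are compared. All 6 of the hematopoietic and interleukin-3 receptor markers were listed. Of the 9 pro-B markers only Cd79a and Cd79b were listed, and Pax5, Ebf1, Vpreb1, Igll1, Rag1 and Dntt were among those that were not. Of the other marker lists, 1 of 6 mast cell and basophil genes (Gata2), 1 of 6 macrophage and granulocyte genes (Csf1r), 3 of 5 erythroid genes (Hba-a1, Klf1 and Epor), 0 of 5 T cell genes and 0 of 5 fibroblast and epithelial genes were listed in all 3 tables.

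Of the 10 genes furthest below DMSO with ruxolitinib present, 7 overlapped with DMSO-wash 6 h after the wash and 3 (Iigp1, Gm5970 and Gbp11) lay above it. Over all genes, 6.63% had every ruxo-wash value above every DMSO-wash value. The interferon-inducible GTPase gene Gm12250 was 5.62 log2 units lower under continuous ruxolitinib and 0.15 ± 0.09 higher after washout (SE, n = 3 each). Iigp1, another GTPase of this family, was 5.10 lower and then 0.10 ± 0.04 higher, and Socs1, a feedback inhibitor of JAK kinases, was 4.07 lower and then 0.23 ± 0.16 higher. The 10 genes furthest below DMSO ran from BC023105 (-6.49) to Gbp11 (-4.02) and included Gm12185 (-5.16), Gm5970 (-4.96), Gm4841 (-4.61), Tgtp1 (-4.52) and the necroptosis kinase gene Ripk3 (-4.28). Of these 10, Gm12185 alone was below DMSO after washout (-0.13 ± 0.14), and BC023105 was at 0.17 ± 0.10. Gm5970 was at 0.75 ± 0.30 and Gbp11 at 0.71 ± 0.41, at mean washout levels of 1.58 and 0.69 log2 CPM (adjusted p = 0.696 and 0.775, limma-trend). BC023105 and Gm4841 are 94.4% identical over the aligned transcript, so reads could have been shared. The loci of Gm12185 and Tgtp1 overlap on the same strand, so the same holds for them. BC023105, Gm12250 and Gm5970 are annotated as processed pseudogenes and Gbp11 as a polymorphic pseudogene. In the continuous comparison 2.69% of all genes were lower by 1 log2 unit without overlap and 0.196% were higher. Without that size threshold, 21.5% of genes were lower and 24% were higher in all 3 ruxolitinib-treated libraries than in any DMSO-treated one. The continuous effect has no test, because its groups come from tables that were normalized separately. In these bulk samples, fewer cells of a type and less RNA per cell cannot be told apart.

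Of the 275 lower genes, 222 (80.7%) are called recovered, meaning that their ruxo-wash and DMSO-wash values overlapped. A further 33 (12%) lay on the overshoot side, with all 3 ruxo-wash values above all 3 DMSO-wash values. The last 20 (7.27%) lay on the persistent side, with all 3 ruxo-wash values below. Among all genes, the ruxo-wash values were all above in 6.63% and all below in 6.53%. The share on the overshoot side was therefore above the background, and the share on the persistent side was near it. An overlap of 3 values with 3 does not show that a level was fully restored. The washout effect had a median of 0.03 log2 units over the 275 genes, with quartiles of -0.09 and 0.14. In size, it was under 10% of the continuous effect for 172 of them (62.5%), with a median of 7.16%. It was over 50% of it for 9 genes, 7 of which had a mean washout level under 3 log2 CPM.

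None of the 275 passed an adjusted p of 0.05 for washout, where limma-trend with Benjamini-Hochberg adjustment called 3 of 13085 genes (0.0229%). At an unadjusted p under 0.05, which 7.03% of the table passed, limma gave 21 of the lower genes as higher after washout (background 3.46%) and 13 as lower (background 3.4%). The single overshoots described below are therefore values that did not pass this test. Leaving out ruxolitinib-treated replicate 2 or any other library in turn, the number of lower genes stayed between 267 and 303. The number on the overshoot side ran from 31 to 60, with 55 without ruxo-wash replicate 2, 53 without DMSO-wash replicate 2 and 60 without DMSO-wash replicate 3. The number on the persistent side ran from 20 to 35, with 35 without DMSO-wash replicate 1. When a washout library was left out, the background itself was 11.6% to 12.1% above and 11.1% to 11.6% below.

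**Figure D1:**
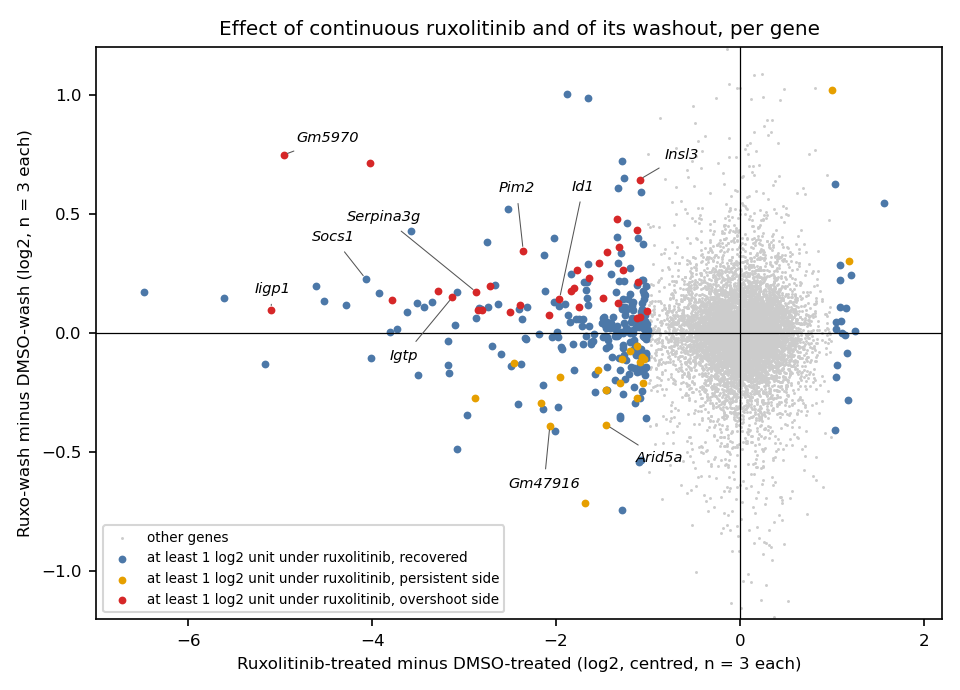
Continuous effect (x axis, log2, centred) against washout effect (y axis, log2) for the 10209 genes, where each point is 1 gene and a difference of means of 3 libraries per group. Coloured points are the 295 genes with a continuous effect of at least 1 log2 unit and no overlap, split by their washout values. The lower genes reach -6.49 on the x axis and mostly stay near 0 on the y axis, and 48 genes with a washout effect beyond 1.2 log2 units in either direction, 2 of them among the coloured genes, lie outside the plot.

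In each bin of genes lowered by at least 1.5 log2 units, the share on the overshoot side was 15.9% to 20.7%, against 6.63% of all genes. Among the 29 genes at least 3 log2 units lower, 6 (20.7%) had all ruxo-wash values above and 0 had all below, with a median washout effect of 0.13. Among the 42 genes from 2 to 3 units lower, 8 (19%) were above and 6 (14.3%) below, with a median of 0.07. For the 44 genes from 1.5 to 2 units lower the shares were 15.9% above and 6.82% below. In the 160 genes from 1 to 1.5 units lower, 7.5% were above and 6.88% below, and in the 674 genes from 0.5 to 1 unit lower 6.38% and 6.97%, both close to the background. The bins were chosen after the values were seen, and the differences between them were not tested. Among genes with a mean washout level of at least 5 log2 CPM the shares above were 33.3% (4 of 12), 47.1% (8 of 17), 28.6% (4 of 14) and 11.5% (7 of 61) over the same first 4 bins, against 8.95% of all such genes. Across all genes the 2 effects were close to unrelated, with a Pearson's r of -0.01 and a Spearman's rho of -0.02 over 10209 genes, which are not independent replicates.

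**Figure D2:**
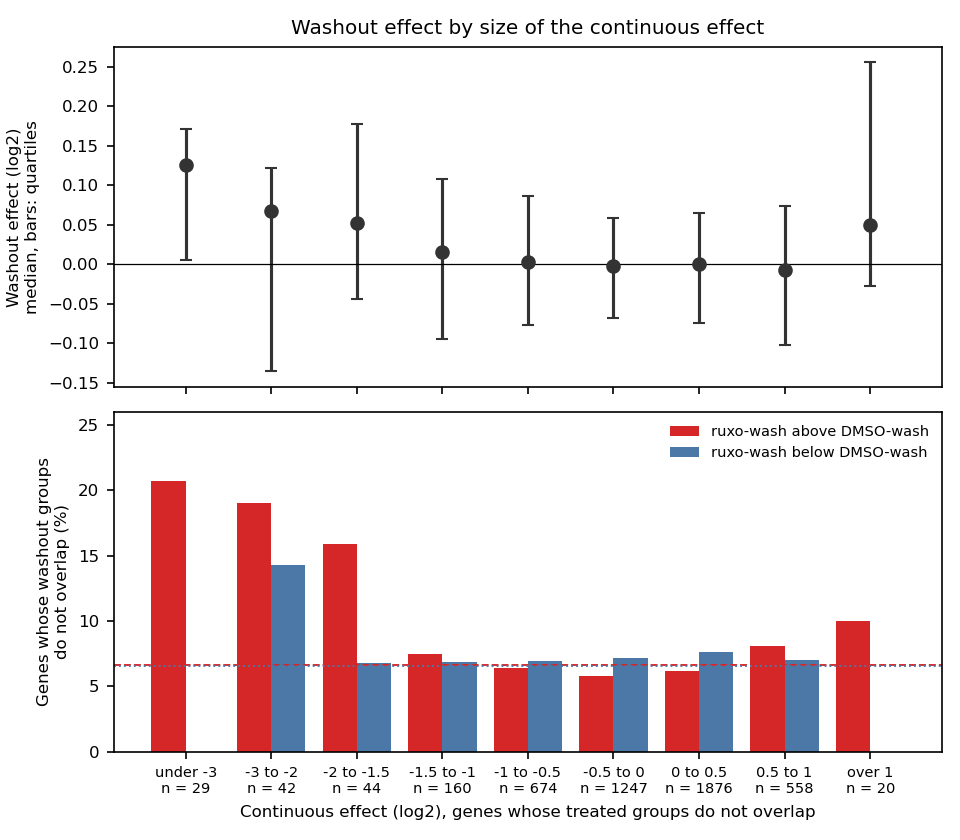
Washout effect in genes binned by continuous effect (x axis, log2, with the number of genes per bin), for genes whose treated groups do not overlap. The upper panel gives the median washout effect with quartiles, and the lower panel the percentage of genes with all ruxo-wash values above (red) or below (blue) all DMSO-wash values, with dashed and dotted lines at 6.63% and 6.53% for all genes. The red bars go from 20.7% in the lowest bin to 6.38% between -1 and -0.5.

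Targets of STAT5, the STAT protein best known downstream of JAK2, were lower with ruxolitinib and slightly above DMSO after washout in several members. Of 16 measured genes, 10 were at least 1 log2 unit lower under continuous ruxolitinib, and the list's median was -1.39, against 0.02 for all genes. After washout the median was 0.08. All ruxo-wash values were above in 7 genes (43.8%, against 6.63% of all genes) and all below in 1 (6.25%, against 6.53%), with overlap in 8. Of the 10 lower ones, 6 lay on the overshoot side, 4 had recovered and 0 lay on the persistent side. Both the 7 and the 6 include Serpina3g, Pim2 and Id1, which the study drew for its washout heatmap. Its genes were chosen on these samples, so these shares are not independent of that choice. Socs1 (0.42, 0.87 and 0.22 log2 CPM with ruxolitinib, 4.41, 4.62 and 4.59 with DMSO) had 3.03, 3.21 and 3.31 in ruxo-wash and 3.07, 3.10 and 2.69 in DMSO-wash cells. The treated groups of Socs1 lay far apart and the washout groups overlapped.

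Pim1 and Pim2 encode serine/threonine kinases that promote survival. Pim1 measured 6.01, 5.71 and 5.89 log2 CPM with ruxolitinib and 8.64, 8.69 and 8.72 with DMSO, then 8.65, 8.71 and 8.69 in ruxo-wash and 8.53, 8.63 and 8.59 in DMSO-wash cells. Its ruxo-wash values were all above, by as little as 0.02 log2 units, and its washout effect of 0.10 ± 0.03 (SE) had an adjusted p of 0.659 by limma-trend. Pim2 measured 3.90, 3.34 and 3.76 with ruxolitinib and 5.99, 6.06 and 5.91 with DMSO, then 7.01, 6.94 and 6.95 in ruxo-wash and 6.66, 6.68 and 6.52 in DMSO-wash cells. The gap between the washout groups was wider for Pim2, whose continuous effect of -2.36 was followed by a washout effect of 0.35 ± 0.05 (SE, adjusted p = 0.218, limma-trend). The pseudogene Gm7645 is 94.9% identical to Pim2 over the aligned transcript, so reads could have been shared, and Gm26885 overlaps Pim1 on the other strand.

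Id1 (4.77, 4.71 and 4.74 log2 CPM with ruxolitinib, 6.64, 6.72 and 6.64 with DMSO), which encodes an inhibitor of helix-loop-helix transcription factors, had 9.25, 9.27 and 9.29 in ruxo-wash and 9.13, 9.14 and 9.11 in DMSO-wash cells. Its washout effect of 0.14 ± 0.02 (SE, adjusted p = 0.197, limma-trend) was small but wider than the spread within either group. The anti-apoptotic gene Bcl2l1 was 1.49 lower and then 0.15 ± 0.03 higher (adjusted p = 0.398, limma-trend). Cish, which encodes a STAT5-induced SOCS protein, was 1.33 lower and then 0.13 ± 0.07 higher (adjusted p = 0.759, limma-trend). Osm (-2.34, then -0.02), Socs3 (-1.45, then -0.02) and the cyclin gene Ccnd2 (-1.08, then -0.07) had recovered. Myc was 0.98 lower under continuous ruxolitinib, with 7.24, 8.29 and 7.50 log2 CPM against 8.54, 8.65 and 8.68, and its washout effect was -0.02. Its ruxolitinib-treated replicate 2 was the closest of the 3 to DMSO.

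Serpina3g, a serine protease inhibitor gene on this STAT5 list, had the smallest washout p of the 33 genes on the overshoot side. It measured 4.66, 4.59 and 4.66 log2 CPM with ruxolitinib and 7.42, 7.43 and 7.56 with DMSO. After washout it measured 10.21, 10.20 and 10.20 in ruxo-wash and 10.06, 10.00 and 10.03 in DMSO-wash cells. The 4 groups were each tight, and the difference turned from -2.87 to 0.17 ± 0.02 (SE, adjusted p = 0.108, limma-trend). Its neighbour Serpina3f, on no list, went from -3.79 to 0.14 ± 0.05 (adjusted p = 0.668, limma-trend). Serpina3i is 95.4% identical to Serpina3g, so reads could have been shared between them. Serpina3g, Pim2 and Id1 are among the genes that the study drew for its washout heatmap. Those genes were chosen on these samples, so their direction after washout is no independent evidence.

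**Figure D3:**
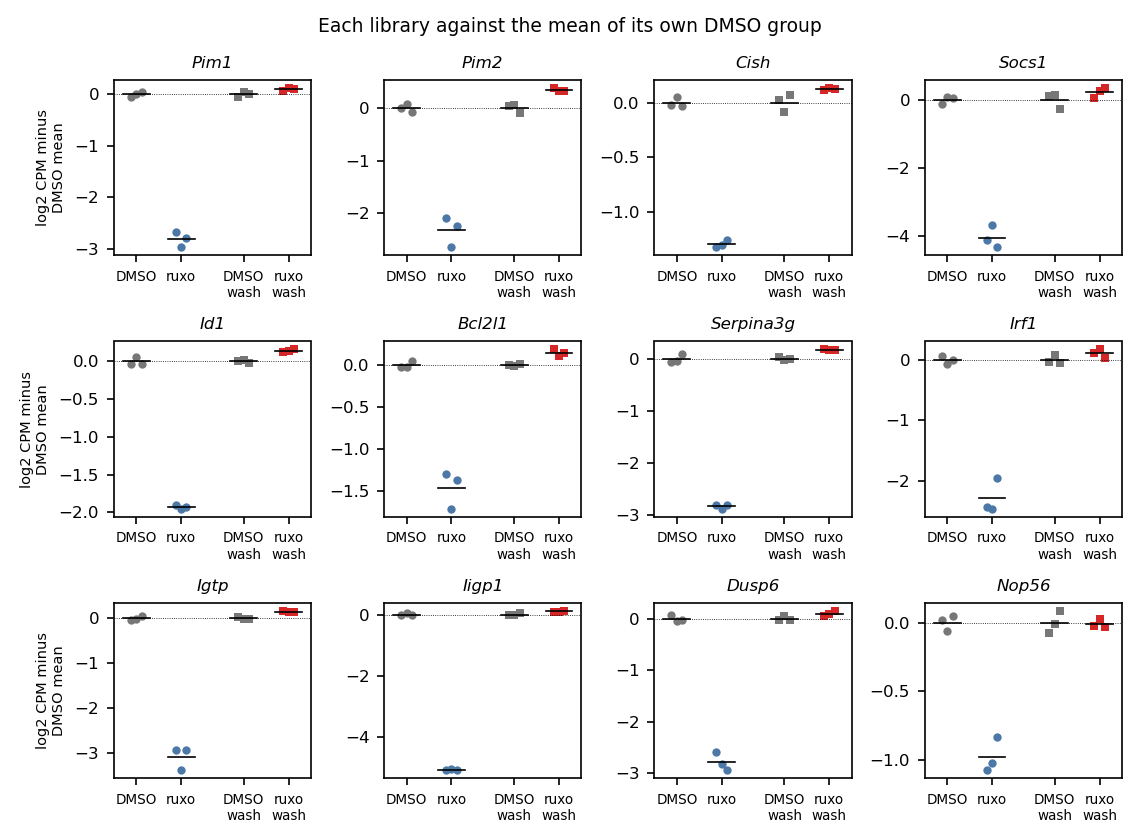
Every library of 12 genes, as log2 CPM minus the mean of the DMSO group of its own experiment (y axis, with its own range per gene). Grey points are DMSO libraries, blue circles ruxolitinib-treated and red squares ruxo-wash libraries, and short lines are means of 3. The blue circles lie below 0 in each panel and the red squares lie close to it, mostly above. The genes were picked for display. Most of them are on the overshoot side, against 12% of the lower genes, and none is on the persistent side.

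The interferon-inducible GTPases were lower under ruxolitinib without exception, and after washout 9 of 15 overlapped with DMSO and 6 lay above it. All 15 measured members were at least 1 log2 unit lower under continuous ruxolitinib, from -5.62 for Gm12250 to -1.65 for Gbp5, with a median of -2.72. After washout their median was 0.10, and 12 of 15 (80%) were above 0, against 50.2% of all genes. All ruxo-wash values were above in 6 (40%, against 6.63% of all genes) and all below in 0 (against 6.53%). The smallest adjusted p was 0.365 (limma-trend). Igtp (5.57, 5.12 and 5.57 log2 CPM with ruxolitinib, 8.48, 8.49 and 8.57 with DMSO) had 7.74, 7.72 and 7.72 in ruxo-wash and 7.61, 7.57 and 7.55 in DMSO-wash cells. Ifi47 had 4.91, 4.70 and 4.82 with ruxolitinib and 7.49, 7.42 and 7.56 with DMSO, then 7.74, 7.71 and 7.64 in ruxo-wash and 7.48, 7.52 and 7.50 in DMSO-wash cells. In both genes the groups were separate in each experiment and in opposite directions. Their washout effects were 0.15 ± 0.03 for Igtp (adjusted p = 0.374, limma-trend) and 0.20 ± 0.04 for Ifi47 (adjusted p = 0.365, limma-trend). Irgm2 (-3.28, then 0.18), Irgm1 (-2.50, then 0.09), Iigp1 (-5.10, then 0.10) and Gbp2 (-1.75, then 0.11) were the other members on the overshoot side, with adjusted p from 0.653 to 0.696 (limma-trend). Tgtp1 (-4.52, then 0.13), Gbp6 (-3.62, then 0.09) and Gbp8 (-2.41, then -0.30) had recovered. Tgtp1 and Tgtp2 are 99.8% identical over the aligned transcript and Gbp8, Gbp9 and Gbp11 are near copies, so single members of these groups are uncertain, and the annotated loci of Igtp and Irgm2 overlap.

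Promoters of 4 genes on the overshoot side, a pair of GTPases and a pair of serpins, are shown as examples that hold the spaced palindrome TTCNNNGAA, the textbook STAT site, in the 150 bases before the annotated start. Bst2 and Isg20, not shown, also held it there, at -136 and -73. They come from RefSeq (GRCm38.p6) and are written 5′ to 3′ in the direction of the gene, all on the plus strand. Capitals mark TTCNNNGAA and, in Igtp and Irgm2, also the core of an interferon-stimulated response element (ISRE), taken here as GAAA repeated after a spacer of 2 bases. The windows are chr11:58199406-58199555 for Igtp, chr11:58214827-58214976 for Irgm2, chr12:104214394-104214543 for the first of 2 listed Serpina3f starts and chr12:104235997-104236146 for Serpina3g.
Igtp: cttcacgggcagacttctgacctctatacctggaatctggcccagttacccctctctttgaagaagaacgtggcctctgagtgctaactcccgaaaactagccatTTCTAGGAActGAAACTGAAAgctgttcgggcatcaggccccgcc
Irgm2: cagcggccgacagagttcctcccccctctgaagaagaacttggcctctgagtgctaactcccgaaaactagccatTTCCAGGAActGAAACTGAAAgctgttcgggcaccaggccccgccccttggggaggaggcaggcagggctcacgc
Serpina3f: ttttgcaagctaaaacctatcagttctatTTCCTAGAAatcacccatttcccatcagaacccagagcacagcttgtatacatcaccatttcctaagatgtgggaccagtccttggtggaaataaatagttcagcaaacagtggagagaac
Serpina3g: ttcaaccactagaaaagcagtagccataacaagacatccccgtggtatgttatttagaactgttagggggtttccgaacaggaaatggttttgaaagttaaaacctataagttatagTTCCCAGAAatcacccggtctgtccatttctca

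The first base of TTCNNNGAA stood at -45 in Igtp, -75 in Irgm2, -121 in Serpina3f and -33 in Serpina3g, counted from the start. Over the wider window of 250 bases before to 50 after the start, TTCNNNGAA was present in 8 of 22 genes on the overshoot side that had a promoter in the RefSeq table (36.4%). It was present in 26 of 159 recovered genes (16.4%), in 1 of 17 on the persistent side (5.88%) and in 661 of 7984 genes of the 3 tables (8.28%). Among the GTPases it was present in 7 of 11 (63.6%). This ISRE core, searched on both strands and chosen after the values were seen, was present in 8 of 22 genes on the overshoot side (36.4%), 31 of 159 recovered genes (19.5%), 5 of 17 on the persistent side (29.4%) and 3.96% of all genes, and in 10 of 11 GTPases (90.9%). Over all windows of the RefSeq table, 8.3% held TTCNNNGAA and 3.44% held the ISRE core, with overlapping matches of both in 24 windows. A match is a sequence description and not a measured binding site.

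Interferon-stimulated genes outside the GTPases were nearly all lower under ruxolitinib and evenly spread around DMSO after washout. Of 22 measured members, 21 were at least 1 log2 unit lower, with a median of -1.96. After washout the median was -0.01, with 11 genes above 0 and 11 below, and overlap in 18. All ruxo-wash values were above in 3 (13.6%, against 6.63% of all genes) and all below in 1 (4.55%, against 6.53%). Rtp4 (-4.01, then -0.11), the ubiquitin-like modifier gene Isg15 (-3.18, then -0.03), Irf7 (-2.41, then 0.10), Irf1 (-2.31, then 0.11) and Irf9 (-1.94, then -0.07) had recovered. Stat2, a transcription factor of the interferon response, measured 6.34, 6.43 and 6.47 log2 CPM with ruxolitinib and 7.41, 7.40 and 7.46 with DMSO, then 5.19, 5.31 and 5.10 in ruxo-wash and 5.55, 5.35 and 5.32 in DMSO-wash cells. Stat2 thus lay on the persistent side, by a margin smaller than the spread within the groups, with a washout effect of -0.21 (adjusted p = 0.712, limma-trend). The sensor gene Oas3, on no list, went from -2.46 to -0.13 ± 0.05 and was also on the persistent side (adjusted p = 0.712, limma-trend). Of the 33 genes on the overshoot side, 18 were on none of the 7 lists of STAT5, interferon, MHC, MYC, ATF4 and ERK genes. Known interferon-inducible genes among them, picked after their values were seen, were Isg20 (-1.80, then 0.19), Parp10 (-1.77, then 0.26) and Trim30a (-1.44, then 0.34), with adjusted p from 0.639 to 0.696 (limma-trend). In MHC class I presentation, 3 of 13 genes were lower by 1 log2 unit (Nlrc5, Psmb10 and Psme2), and the list's medians were -0.40 and 0.03.

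**Figure D4:**
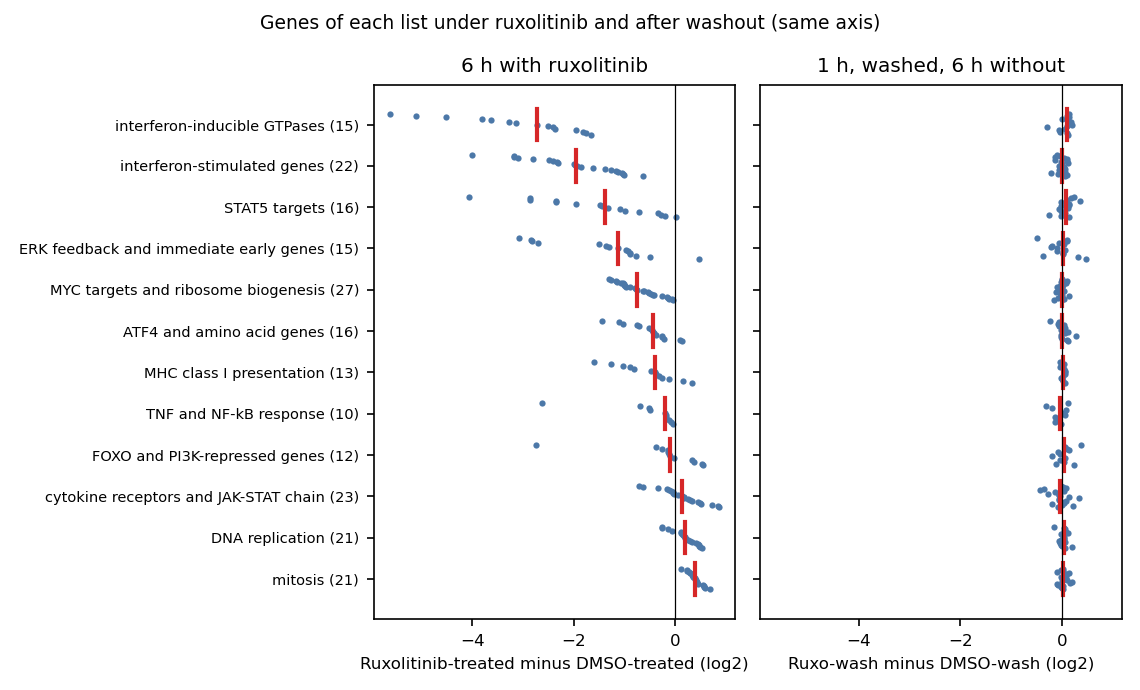
Members of 12 gene lists (points, with the number measured in brackets) by continuous effect on the left and washout effect on the right, both in log2 units on the same axis, with list medians as red bars. The medians on the left run from -2.72 for the GTPases to 0.40 for mitosis, and those on the right lie between -0.04 and 0.10.

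Growth-related genes that were lower under ruxolitinib mostly overlapped with DMSO after washout. Of 27 genes of ribosome biogenesis that MYC is known to drive, 8 were at least 1 log2 unit lower and the median was -0.76. All 8 had recovered, and the median after washout was -0.01. The nucleolar gene Nop56 measured 6.90, 6.95 and 7.14 log2 CPM with ruxolitinib and 8.0, 7.91 and 8.02 with DMSO, then 9.15, 9.20 and 9.14 in ruxo-wash and 9.09, 9.16 and 9.26 in DMSO-wash cells. Its washout groups overlapped fully. Of 15 ERK feedback and immediate early genes, 8 were lower by 1 log2 unit and the medians were -1.12 and 0.01. Dusp6, the phosphatase that switches off ERK, had recovered (-2.82, then 0.10 ± 0.04). Dusp5, another ERK phosphatase, measured 1.30, 1.70 and 2.22 with ruxolitinib and 3.23, 2.74 and 3.04 with DMSO, then 4.22, 4.14 and 4.22 in ruxo-wash and 4.37, 4.51 and 4.33 in DMSO-wash cells. Dusp5 was on the persistent side, with a washout effect of -0.21 ± 0.08 (SE, adjusted p = 0.668, limma-trend). Of 16 ATF4 and amino acid genes, 3 were lower by 1 log2 unit (Trib3, Slc7a1 and Mthfd2), with medians of -0.45 and 0.01, and the arginine transporter gene Slc7a1 was on the persistent side by -0.05.

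Lists with at most 1 gene changed by 1 log2 unit without overlap under continuous ruxolitinib had smaller medians in size than the STAT5, GTPase and interferon lists. DNA replication had medians of 0.20 and 0.03 over 21 genes. Mitosis had 0.40 and 0.01 over 21, and every member was higher on average with ruxolitinib, by 0.11 to 0.69. FOXO and PI3K-repressed genes had -0.10 and 0.04 over 12, and TNF and NF-kB response -0.19 and -0.04 over 10. Tnfsf10, the ligand TRAIL, and the activation marker Cd69 were the members lower by 1 log2 unit in the latter 2 lists, at -2.75 and -2.63, and both had recovered. Cytokine receptors and the JAK-STAT chain had medians of 0.13 and -0.04 over 23 genes, and no member reached 1 log2 unit with no overlap in the first experiment. The mouse gene Jak2 differed by 0.05 under continuous ruxolitinib, with groups that overlapped, and by -0.06 after washout, with all ruxo-wash values below (adjusted p = 0.727, limma-trend). Per the methods of the study the JAK2-V617F construct is human, and whether its reads were counted for mouse Jak2 was not tested. In this list the shared beta subunit gene Csf2rb (-0.17, then -0.36) and its paralog Csf2rb2 (-0.13, then -0.43) had larger negative differences after washout than with the inhibitor, at adjusted p = 0.325 and 0.108 (limma-trend). The hematopoietic marker list, which holds both beta subunit genes, summed to 8.74 to 8.91 log2 CPM in ruxo-wash and 9.02 to 9.09 in DMSO-wash cells, and its part in the results was not tested.

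On the persistent side, besides the members already named, the genes with the smallest washout p were Gm6093, Gm47916, F2r, Gm35037, Arid5a, Gm11626, Mtap and Gm43197. Gm47916 (-2.07, then -0.39 ± 0.04, adjusted p = 0.104, limma-trend) and Gm6093 (-1.96, then -0.18) are long noncoding RNAs that overlap on opposite strands of chromosome 13, so they are not independent. Arid5a, which encodes an RNA-binding protein, measured 4.51, 4.32 and 4.70 log2 CPM with ruxolitinib and 5.89, 5.97 and 5.92 with DMSO. It then measured 4.44, 4.20 and 4.54 in ruxo-wash and 4.72, 4.90 and 4.71 in DMSO-wash cells. Its groups did not overlap in either experiment, and the washout effect of -0.39 ± 0.11 was 26.6% of the continuous one (adjusted p = 0.551, limma-trend). The thrombin receptor gene F2r went from -1.04 to -0.11 ± 0.02 (adjusted p = 0.331, limma-trend), and Mtap, an enzyme of methionine salvage, from -1.20 to -0.08. Gm35037 and Gm11626, which is antisense to Ifi35, had washout effects of -4.56 and -3.99 that rest on the lowest value among the washout libraries, -3.45 log2 CPM. All 3 ruxo-wash libraries of Gm35037 and replicate 2 of Gm11626 were at that value. With log2(CPM + 5) the effects of Gm35037 and Gm11626 were -0.52 and -1.35, and without ruxo-wash replicate 2 that of Gm11626 was -2.57.

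Few genes were higher under continuous ruxolitinib. Of the 20 that passed, 18 had recovered. On the persistent side lay 2 (Axin2 and Art4, 10% against 6.63% of all genes), and on the overshoot side 0 (against 6.53%). Zfp358 (1.21, then 0.24), Art4 (1.19, then 0.30) and the collagen gene Col5a1 (1.17, then -0.08) were among the largest, after Gm28438, 99.7% identical to mt-Nd3, and Gm3226, a near copy of tubulin genes. Axin2, a Wnt target and inhibitor, measured 2.55, 2.87 and 2.69 log2 CPM with ruxolitinib and 1.91, 1.98 and 1.09 with DMSO, then 0.56, 1.15 and 0.55 in ruxo-wash and -0.26, 0.30 and -0.84 in DMSO-wash cells. The washout values were low and scattered, and the effect of 1.02 ± 0.56 had an adjusted p of 0.767 by limma-trend. The number of higher genes depended on the ruxolitinib-treated libraries, with 45 without replicate 1, 13 without replicate 2 and 34 without replicate 3. No DMSO-treated value of the shared genes was under 0.5 log2 CPM while 19 genes had a ruxolitinib-treated value under it, so genes nearly silent in DMSO were not among those compared. At the threshold of 1 log2 unit, the lower genes just inside were Nop58 (-1.001), Bst2 (-1.006) and Cyb5r1 (-1.006), and those just outside were Gm35986 (-0.996), Gm8909 (-0.996) and Nop2 (-0.994). The higher genes just inside were Axin2, Fam210b and Nynrin (1.01 to 1.03), and those just outside were Mapk3 (0.995), Gnpda1 (0.993) and Mt1 (0.981).

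The 3 genes that limma-trend called after washout were not among the genes changed by 1 log2 unit under continuous ruxolitinib. Spp1, which encodes osteopontin, measured 5.09, 5.18 and 4.90 log2 CPM with ruxolitinib and 5.36, 5.49 and 5.42 with DMSO, then 8.53, 8.60 and 8.52 in ruxo-wash and 9.05, 9.07 and 9.04 in DMSO-wash cells. It was below DMSO in each experiment, by 0.40 with the inhibitor and by 0.50 ± 0.03 after washout, where it fell (adjusted p = 0.0217, limma-trend). The annexin gene Anxa5 fell by 0.48 after washout (adjusted p = 0.0289, limma-trend), with treated groups that overlapped. The hemoglobin gene Hba-a1, a near copy of Hba-a2, measured 9.53, 8.65 and 9.53 log2 CPM with ruxolitinib and 8.33, 8.47 and 8.43 with DMSO. Its ruxolitinib-treated replicate 2 was thus close to DMSO. Hba-a1 fell by 0.21 after washout (adjusted p = 0.0367, limma-trend) and was 0.79 higher on average under ruxolitinib. The erythroid list that holds it summed to 9.11 to 9.78 log2 CPM with ruxolitinib and 8.63 to 8.75 with DMSO, then 11.76 to 11.80 in ruxo-wash and 11.96 to 11.98 in DMSO-wash cells, where Hbb-bs was also listed, and its part in this result was not tested. With 1 washout library left out, no more than 1 gene kept an adjusted p under 0.05.

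At a looser limit, an unadjusted limma p under 0.001, 27 of the compared genes differed after washout, 18 lower and 9 higher. Of the 18, 7 were higher without overlap under continuous ruxolitinib, 6 lower, and 5 overlapped. Of the 9, 4 were lower, 0 higher, and 5 overlapped. Over all genes, 24% were higher without overlap in that comparison and 21.5% were lower. Among the 7 were Rap1gap, which inactivates the small GTPase RAP1 (0.83, then -0.62 ± 0.08, adjusted p = 0.112, limma-trend), and Angptl2, a secreted angiopoietin-like protein (0.73, then -0.76 ± 0.09, adjusted p = 0.112, limma-trend). Rap1gap measured 4.50, 4.42 and 4.63 log2 CPM with ruxolitinib and 3.53, 3.96 and 3.45 with DMSO, then 4.04, 4.18 and 4.22 in ruxo-wash and 4.71, 4.77 and 4.81 in DMSO-wash cells. For this gene the groups were separate in both experiments, above DMSO in the first and below it in the second. Both genes are on the list of 23 measured genes that the study drew for its washout heatmap, chosen on these samples. So are Serpina3g, Pim2, Id1, Gm6093, Gm47916, Csf2rb2, Spp1, Anxa5 and Hba-a1. The direction of all these genes after washout is therefore no independent evidence. That list had medians of -0.05 and -0.16, with 14 genes all below and 9 all above after washout.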

How the data were processed

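RNA of Ba/F3 JAK2-V617F cells was sequenced in 12 libraries used here. The authors deposited log2 CPM values per gene, after removing genes with low expression and TMM normalization with edgeR. Per their methods, reads were pseudo-aligned to GRCm38 with kallisto, whereas the submitters' processing notes name STAR 2.7.3a, edgeR 4.0.16 and GRCm39, so the counting behind each table is uncertain, and whether it used strand is not given in the sources used here. In both tables of the first experiment, 100% of low values were whole reads within 0.05 reads after removal of a constant (0.213 and 0.222 CPM). No count test was run on those reads, since the groups are in separate tables. Results for some genes are not reported here. The 9 libraries of the CHZ868 experiments were not used here.

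Genes were matched by exact symbol. Symbols of different age left out 1415 of the 11624 genes listed in both tables of the first experiment, together with genes that the washout table does not list. Each treated library was centred on its median over the 10209 genes. Washout was fitted by limma-trend (limma 3.58.1, R 4.3.3) on all 13085 genes of its table, with Benjamini-Hochberg adjustment and no replicate block. Near copies were found with blastn 2.17.0 (at least 90% identity over 300 bases), and the fit was tested on simulated data. The members, the 13 gene lists and the 7 marker lists were chosen with earlier results of these data known.

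Genes named are list members, the 10 largest falls and rises, the 8 genes per side with the smallest washout p, genes with an adjusted p under 0.05 and the 3 genes on each side of the threshold. Serpina3f, Oas3, Isg20, Parp10 and Trim30a were named after their values were seen. Alternatives were other scalings, pseudocounts of 1 and 5, mean log2 CPM filters at 1 and 3, a threshold of 1.5 log2 units, other limma settings, a replicate block and leaving out each library.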

Additional observations from a re-analysis of the deposited data

Results flagged for a closer look

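Flagged were 22 genes on the overshoot side that are named in the text or on a gene list. By the rule that defines this side, every ruxolitinib-treated library lay below every DMSO-treated one, and every ruxo-wash library above every DMSO-wash one. The difference between the 2 effects was not tested, since the tables were normalized separately. Most of each difference is the continuous fall by which the genes were chosen. In log2 units, the washout effect minus the continuous effect was 5.71 for Gm5970, 5.20 for Iigp1, 4.73 for Gbp11, 3.93 for Serpina3f, 3.46 for Irgm2, 3.28 for Igtp, 3.04 for Serpina3g, 2.95 for Pim1, 2.91 for Ifi47, 2.7 for Pim2, 2.59 for Irgm1 and 2.10 for Id1. It was 2.04 for Parp10, 1.99 for Isg20, 1.86 for Gbp2, 1.78 for Trim30a, 1.73 for Insl3, 1.64 for Bcl2l1, 1.55 for Pglyrp2, 1.46 for Cish, 1.18 for Dtx3l and 1.10 for Bst2. After Gm5970 and Gbp11, which were at low washout levels, the largest washout effects of these genes were 0.64 for Insl3 and 0.43 for Pglyrp2 (adjusted p = 0.472 and 0.515, limma-trend). Insl3 is a peptide hormone gene that overlaps Jak3, and Pglyrp2 encodes an enzyme that cleaves peptidoglycan. Both were low in the first experiment, with means of 1.39 and 2.02 log2 CPM with ruxolitinib and 2.45 and 3.09 with DMSO. Their continuous effects of -1.09 and -1.11 shrank to as little as -0.75 and -0.91 with 1 library left out. Under the other alternatives they shrank to as little as -0.49 and -0.62.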

How the results depend on the processing

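The number of lower genes (275) was 156 with log2(CPM + 5), 158 with a mean log2 CPM of at least 3 and 115 at 1.5 log2 units. Under the same 3 settings 116, 119 and 85 genes had recovered, and at 1.5 log2 units 21 lay on the overshoot and 9 on the persistent side. The number of higher genes (20) was 49 with quantile normalization, 3 with log2(CPM + 5), 8 with the filter at 3 and 1 at 1.5 log2 units, with 41, 3, 8 and 1 recovered, and quantile normalization put 3 on the overshoot side. Higher genes on the persistent side (2) numbered 4 without centring, 5 with quantile normalization, 1 with log2(CPM + 1), 0 with log2(CPM + 5), 1 and 0 with filters at 1 and 3, and 0 at 1.5 log2 units. Washout calls (3) numbered 9 without the trend and 5 with robust limma. With libraries left out in turn, there were 267 to 303 lower and 13 to 45 higher genes, 186 to 246 lower genes recovered, 31 to 60 on the overshoot and 20 to 35 on the persistent side, 10 to 38 higher genes recovered, 0 to 2 on the overshoot and 1 to 5 on the persistent side, and 0 to 1 washout calls. The median washout effect of the lower genes stayed above 0 throughout, from 0.02 to 0.08. The cause of these changes was not tested. 

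Replicate numbers did not mark pairs, with correlations of same-numbered deviations between -0.03 and 0.03 after washout. With a replicate block, limma called 0 genes, with 843 at an unadjusted p under 0.05. The depth of the washout libraries is unknown, so no counting interval can be given there.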
